A study of Mus musculus with 43 samples.

Results

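The eosinophil chemokine genes Ccl11, Ccl24 and Ccl8 and the chemokine receptor gene Ccr3 were followed across 43 mouse lung libraries. The 4 genes were chosen by symbol, each mapped to 1 Entrez ID, from 24475 IDs in the count table, and all 4 passed the filter on low counts that left 15598 genes for testing. Lung RNA was sequenced with a strand-specific mRNA kit. The groups were 15 libraries from mice given house dust mite (HDM), an airway allergen, for 15 weeks with an anti-IL-33 antibody (the anti-IL-33 group), 4 from mice given HDM for 15 weeks with an isotype control antibody (the isotype group), 7 after HDM for 15 weeks with no antibody, 10 after HDM for 4 weeks with no antibody and 7 after saline. All 43, saline controls included, carried the genotype written Il33hu/hu, on a background of 75% C57BL/6NTac and 25% 129S6SvEvTac. The labels give no time for the saline mice, so time in the study and HDM cannot be told apart in a comparison with saline, and they give neither the age of any mouse nor the dose of the antibodies. The comparisons ask how the lung changed with HDM, how it changed between 4 and 15 weeks, and how blocking IL-33, an alarmin cytokine of barrier tissues, changed it at 15 weeks.

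CCR3 is the receptor through which eosinophils follow chemokines into tissue, and basophils and some T cells carry it too. CCL11 (eotaxin-1) and CCL24 (eotaxin-2) are its classical ligands. In allergic lung, IL-4 and IL-13 acting through STAT6 induce both, in structural cells and in macrophages. CCL8 is a monocyte chemoattractant protein made mainly by macrophages, and in the mouse its best known receptor is CCR8, found on type 2 helper T cells.

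Library totals lay between 4795214 and 12599467 counts. Counting error is part of the spread between libraries. Limits given for counts of 0 cover counting error only, and the 95% intervals of log2 fold changes include the spread between libraries. In a whole lung library, fewer cells of a type and less RNA per cell cannot be told apart. The sample numbers fall into 2 separate ranges, with 22 libraries in number range 1 and 21 in number range 2. No label used here says what the ranges mean, every group has libraries in both, and the fit has a term for them. Replicate 1 of 15-week HDM and replicate 3 of 4-week HDM stood apart from their groups, with median correlations with their own group of 0.916 and 0.923, against 0.952 or more in the other 41 libraries. Replicate 4 of the isotype group is the only isotype library in number range 2. Levels are given as CPM, a gene's count scaled to its library's total after that total was adjusted by TMM, a scaling factor for each library. A level can therefore differ from the count scaled to the unadjusted total. The markers of lung, such as Sftpc, summed to 16620 CPM or more in every library. Genes are said to rise, fall or change where edgeR's quasi-likelihood test, adjusted over 15598 genes by Benjamini-Hochberg (BH), gave a p under 0.05, and errors of log2 fold changes are SEs of this fit. The labels do not say more of how the libraries of a group were made separate, so p-values measure the spread between these libraries.

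Ccl11 (Entrez 20292) lies on chromosome 11, 82057832 to 82062955 on the plus strand of GRCm38, and Ccl8 (Entrez 20307) lies 52.2 kb beyond it, at 82115185 to 82116799 on the same strand. Between them and beside them lie other monocyte chemoattractant genes, with Ccl7 10.3 kb from Ccl11 and Ccl12 11.8 kb from Ccl8. Ccl24 (Entrez 56221) lies on chromosome 5, 135569935 to 135573123 on the minus strand. Ccr3 (Entrez 12771) lies on chromosome 9, 124017825 to 124031692 on the plus strand, 49.1 kb from Ccr1 and 70.2 kb from Ccr2. No annotated gene overlaps any of the 4 genes, and none of the 50-base windows of their transcripts was found in another gene's transcripts. Their exons span 1082 bases in Ccl11, 1295 in Ccl24, 511 in Ccl8 and 3272 in Ccr3, which is why levels of different genes are compared below per kilobase.

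The promoter table used here (RefSeq, GRCm38.p6) holds 2 of the 4 genes, Ccl8 and Ccr3. They are shown because the table does not hold Ccl11 and Ccl24, and not for how they changed. Each sequence is the 250 bases before the annotated transcript start, 5′ to 3′ on the plus strand. The first is chr11:82114935-82115184 and the second chr9:124021721-124021970, which ends at a start inside the annotated span of Ccr3. Capitals mark the only matches to the motifs searched.
Ccl8: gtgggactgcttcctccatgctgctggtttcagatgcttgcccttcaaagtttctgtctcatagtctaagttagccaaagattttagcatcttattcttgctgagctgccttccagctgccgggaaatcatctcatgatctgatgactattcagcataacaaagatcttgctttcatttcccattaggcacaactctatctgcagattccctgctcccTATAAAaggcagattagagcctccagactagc
Ccr3: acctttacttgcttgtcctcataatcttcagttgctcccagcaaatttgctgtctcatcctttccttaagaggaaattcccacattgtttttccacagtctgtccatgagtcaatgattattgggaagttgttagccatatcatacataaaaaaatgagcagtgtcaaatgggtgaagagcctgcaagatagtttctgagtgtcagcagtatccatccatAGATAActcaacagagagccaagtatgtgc

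The motifs searched on both strands were the TATA box TATAAA, the GATA factor motifs AGATAA and TGATAA, and 2 STAT motifs, TTCNNNGAA and TTC and GAA with 4 bases between them, the spacing STAT6 prefers. The Ccl8 promoter holds TATAAA 32 bases before the start, as do 14.3% of 27025 promoters of this length at any position. The Ccr3 promoter holds AGATAA 30 bases before the start, as do 11.4% of those promoters. TGATAA, which 9.21% hold, TTCNNNGAA, which 8.13% hold, and the wider STAT motif, which 6.76% hold, are in neither window. A match describes the letters of the window, and these letters were not tested for binding.

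**Figure D1:**
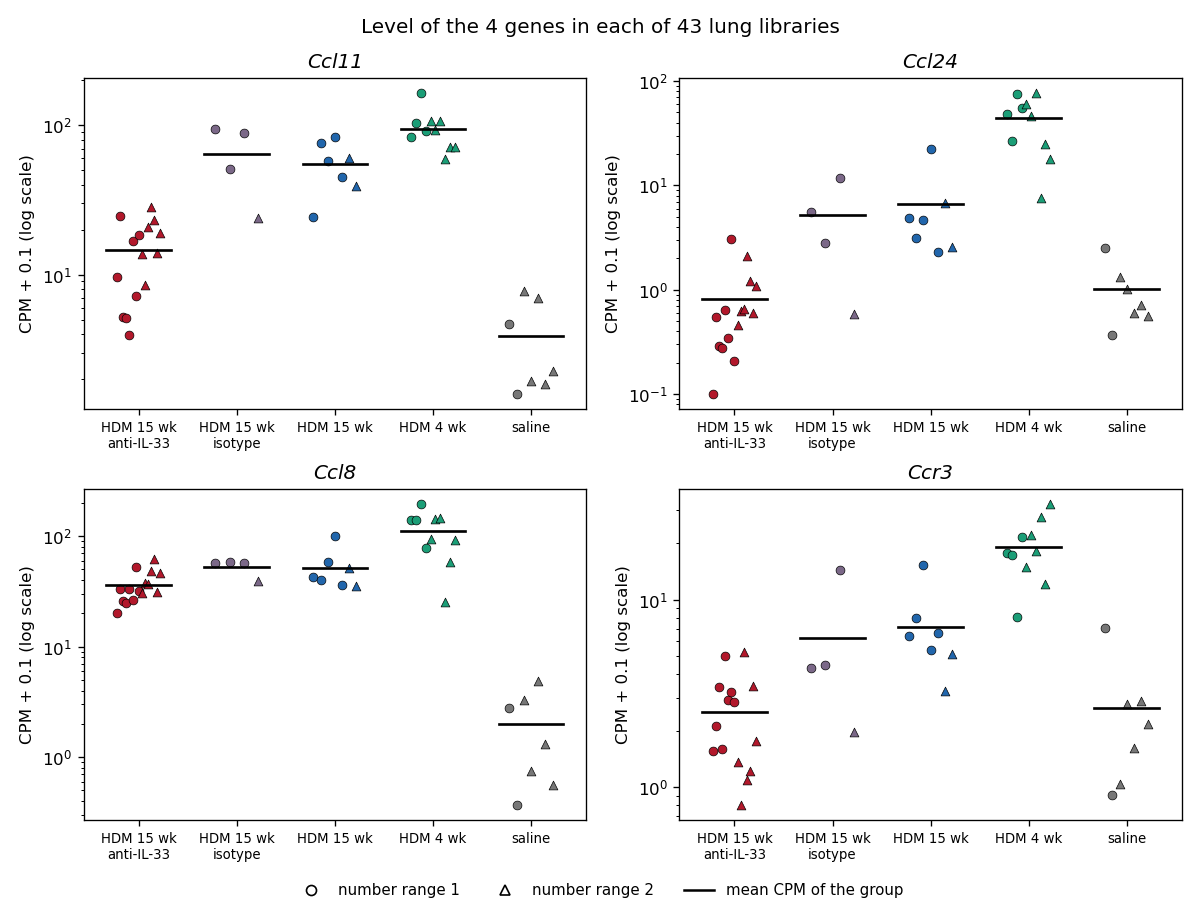
Level of Ccl11, Ccl24, Ccl8 and Ccr3 in each library, as CPM plus 0.1 on a log axis, by group. Each point is a library, circles and triangles are number ranges 1 and 2, and bars are group means; in the anti-IL-33 group Ccl8 lies above every saline library while Ccl24 and Ccr3 overlap saline.

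All 4 genes were higher after 4 weeks of HDM than with saline, and in none did any library of one group reach the other. The share of all genes without such overlap was not computed, here or in the comparisons below. Ccl11 had between 59.2 and 163.6 CPM after 4 weeks of HDM, with a median of 91.95 CPM, against 1.48 to 7.67 CPM with saline, with a median of 2.16 CPM. Ccl24 had 7.53 to 76.02 CPM with a median of 47.3 CPM, against 0.270 to 2.40 CPM and a median of 0.609 CPM with saline. Every 4-week library therefore lay above every saline library for both eotaxins. Ccl8 had 25.3 to 194.7 CPM with a median of 117 CPM after 4 weeks of HDM, against 0.270 to 4.80 CPM and a median of 1.22 CPM with saline. Ccr3 had 7.98 to 32.2 CPM with a median of 17.9 CPM, against 0.809 to 6.93 CPM and a median of 2.08 CPM. The highest saline library for Ccr3 and Ccl24 was replicate 1, and for Ccr3 it lay just below the lowest 4-week library, replicate 3.

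In the fit, log2 fold changes at 4 weeks over saline were 4.66 ± 0.43 (SE) for Ccl11, 5.56 ± 0.60 for Ccl24, 5.83 ± 0.42 for Ccl8 and 2.96 ± 0.40 for Ccr3. All 4 genes rose, where 29.3% of the genes tested rose, 27.5% fell and 56.8% in all changed. The adjusted p was 4.61e-11 for Ccl11, 1.7e-09 for Ccl24, 8.77e-14 for Ccl8 and 1e-07 for Ccr3 with edgeR's quasi-likelihood test. The rise of Ccl8 was larger than that of all but 0.154% of genes tested in either direction, and that of Ccr3 larger than all but 1.23%. Within number range 1, with 4 against 2 libraries, the 4 log2 fold changes were 5.21, 5.25, 6.56 and 2.07, and within number range 2, with 6 against 5, they were 4.41, 5.73, 5.51 and 3.41, in the order Ccl11, Ccl24, Ccl8 and Ccr3.

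Per kilobase of exon, Ccl8 was the highest of the 4 genes after 4 weeks of HDM, at a mean of 217 ± 98.5 CPM per kb (SD, n = 10), followed by Ccl11 at 87.9 ± 26.8, Ccl24 at 33.8 ± 18.3 and Ccr3 at 5.85 ± 2.18 CPM per kb. With saline, Ccl8 and Ccl11 averaged 3.70 ± 3.33 and 3.47 ± 2.41 CPM per kb (n = 7), and Ccr3 and Ccl24 0.775 ± 0.639 and 0.705 ± 0.562 CPM per kb. The levels thus formed 2 pairs with saline, the members of each closer than their SD. With anti-IL-33 the order was Ccl8 at 70.5 ± 22.6, Ccl11 at 13.4 ± 7.20, Ccr3 at 0.738 ± 0.424 and Ccl24 at 0.551 ± 0.616 CPM per kb (n = 15).

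After 15 weeks of HDM without antibody, all 4 genes were again higher than with saline, by unequal amounts. Ccl11 had 24.1 to 84.1 CPM with a median of 57.6 CPM at 15 weeks. Ccl8 had 35.1 to 100.1 CPM with a median of 42.3 CPM. Both ranges lay above every saline library. Ccl24 had 2.22 to 22.3 CPM at 15 weeks with a median of 4.55 CPM, and its highest library, replicate 4, stood far above the next, at 6.74 CPM. Ccr3 had 3.14 to 15.2 CPM with a median of 6.27 CPM, and 2 of 7 libraries lay above all saline libraries.

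Log2 fold changes at 15 weeks over saline were 3.88 ± 0.44 (SE) for Ccl11, 2.69 ± 0.64 for Ccl24, 4.72 ± 0.43 for Ccl8 and 1.30 ± 0.43 for Ccr3. All 4 rose, where 31.2% of genes tested rose, 28.1% fell and 59.2% in all changed. The adjusted p was 2.81e-09 for Ccl11, 0.000474 for Ccl24, 4.56e-11 for Ccl8 and 0.00926 for Ccr3. The rise of Ccr3 did not pass within either number range, at 1.10 (adjusted p = 0.191, 5 against 2 libraries) in range 1 and 1.03 (adjusted p = 0.154, 2 against 5) in range 2, and that of Ccl24 did not pass in range 1, at 2.47 (adjusted p = 0.082), all with edgeR.

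Between 4 and 15 weeks of HDM the 2 eotaxins parted. Ccl24 averaged 6.59 ± 7.11 CPM (SD, n = 7) at 15 weeks, 15.1% of its mean of 43.8 ± 23.7 CPM (n = 10) at 4 weeks. Ccl11 averaged 55.3 ± 21.04 CPM at 15 weeks, 58.1% of its mean of 95.1 ± 29.01 CPM at 4 weeks. Ccl8 averaged 51.9 ± 22.8 CPM and Ccr3 7.05 ± 3.88 CPM at 15 weeks, against 111 ± 50.4 and 19.1 ± 7.12 CPM at 4 weeks. Of the 7 libraries at 15 weeks, 6 lay below all 4-week libraries for Ccl24 and 6 for Ccr3, 4 for Ccl11 and none for Ccl8.

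Ccl24, Ccl8 and Ccr3 fell, by 2.87 ± 0.50, 1.11 ± 0.31 and 1.66 ± 0.38 on the log2 scale with adjusted p of 0.000131, 0.00889 and 0.00193 by edgeR, and Ccl11 did not pass the test, at -0.77 ± 0.34 with an interval of -1.46 to -0.09 and an adjusted p of 0.0973. That is 3 of 4 members lower, where 9.08% of genes tested were lower, 12.3% higher and 21.4% in all changed. Within number range 1 (5 against 4 libraries) the fall of Ccr3 did not pass, at -0.97 (adjusted p = 0.164), and within range 2 (2 against 6) no member passed, at -3.05 (0.0514) for Ccl24, -1.09 (0.414) for Ccl8 and -2.38 (0.0589) for Ccr3, with adjusted p in brackets. With only these 2 groups in the fit, Ccl11 passed at -0.88 (adjusted p = 0.0221). These comparisons share libraries with those against saline, so their values stand side by side and are not independent of each other.

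**Figure D2:**
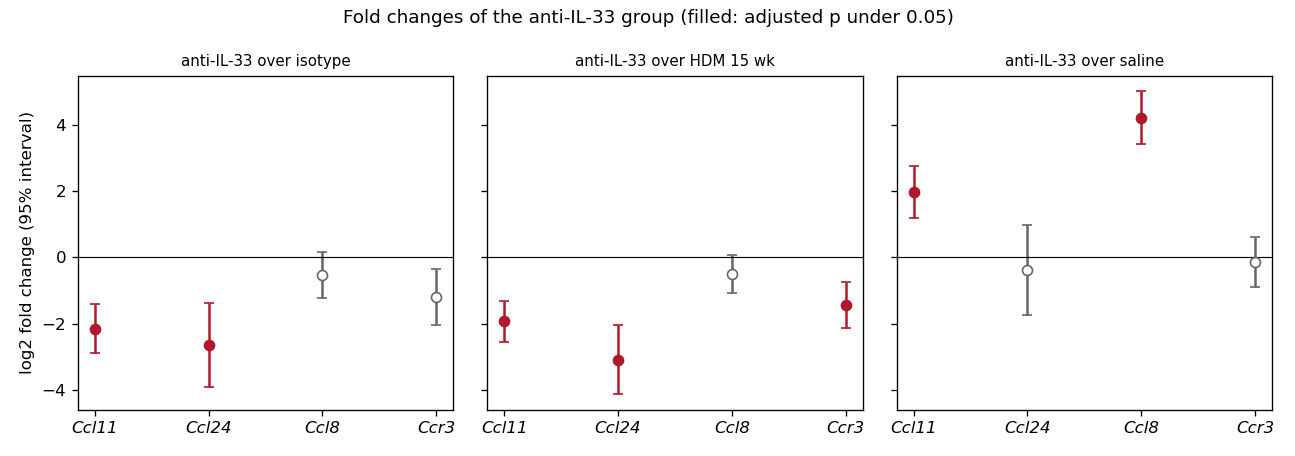
Log2 fold changes of the 4 genes in the anti-IL-33 group over the isotype group, over 15-week HDM without antibody and over saline, with 95% intervals; filled points passed at an adjusted p under 0.05 and open points did not. Ccl8 lay 4.21 over saline and -0.53 over isotype.

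Under anti-IL-33 at 15 weeks, Ccl11 and Ccl24 were lower than with the isotype antibody, Ccl24 and Ccr3 overlapped saline, and Ccl8 lay above every saline library. Ccl11 had 3.83 to 28.2 CPM in the anti-IL-33 group, with a median of 13.9 CPM, against 94.2, 51.01, 88.2 and 23.7 CPM in the 4 isotype libraries. Of 15 anti-IL-33 libraries, 13 lay below all isotype libraries for Ccl11, and 11 lay above all saline libraries. Ccl24 had 0 to 2.96 CPM with a median of 0.495 CPM in the anti-IL-33 group, against 5.51, 2.69, 11.8 and 0.492 CPM with the isotype. One anti-IL-33 library had no Ccl24 count, which allows up to 0.627 CPM, and 7 of 15 lay below all isotype libraries. Isotype replicate 4 was the lowest of its group for all 4 genes, and it lay inside the anti-IL-33 range for all 4.

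Ccl8 had 19.9 to 61.9 CPM with a median of 32.97 CPM in the anti-IL-33 group, against 57.1, 58.8, 56.8 and 39.2 CPM with the isotype. Every anti-IL-33 library held more Ccl8 than any saline library, 19.9 CPM or more against 4.80 CPM or less. Ccr3 had 0.706 to 5.18 CPM with a median of 2.02 CPM in the anti-IL-33 group, against 4.23, 4.39, 14.2 and 1.87 CPM with the isotype. For Ccr3 the anti-IL-33 and saline libraries spanned the same range, apart from 1 anti-IL-33 library below it and 1 saline library above it.

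Against the isotype, Ccl11 fell by 2.15 ± 0.37 on the log2 scale (adjusted p = 0.000632) and Ccl24 by 2.63 ± 0.62 (adjusted p = 0.0135). Ccr3 lay at -1.20 ± 0.42, with an interval of -2.05 to -0.36 and an adjusted p of 0.0664, and Ccl8 at -0.53 ± 0.34, with an interval of -1.22 to 0.15 and an adjusted p of 0.295. Thus 2 of 4 members were lower, where 3.14% of genes tested were lower, 3.57% higher and 6.71% in all changed. By p-value Ccl11 ranked 16 of 15598 genes. Without isotype replicate 1 Ccl24 had an adjusted p of 0.0675, and without replicate 3 it lay at -1.84 with an adjusted p of 0.182, while Ccr3 lay at -0.45 without replicate 3 (adjusted p = 0.587) and passed without replicate 4, at -1.51 (adjusted p = 0.0455). Without the 2 libraries that stood apart, both of other groups, Ccr3 passed at -1.17 (adjusted p = 0.0308). With only these 2 groups in the fit Ccl8 passed, at -0.66 (adjusted p = 0.0304), and with limma-voom Ccl24 did not (adjusted p = 0.0783). In number range 1, with 8 against 3 libraries, log2 fold changes were -2.78 for Ccl11, -3.65 for Ccl24, -0.90 for Ccl8 and -1.47 for Ccr3. In number range 2, with 7 anti-IL-33 libraries against isotype replicate 4 alone, they were -0.40, 0.79, 0.08 and 0.11, and none passed.

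Against 15-week HDM without antibody, which has 7 libraries, Ccl11 fell by 1.93 ± 0.31 (adjusted p = 4.9e-05), Ccl24 by 3.09 ± 0.52 (adjusted p = 7.19e-05) and Ccr3 by 1.44 ± 0.35 (adjusted p = 0.00204). Ccl8 lay at -0.51 ± 0.28, with an interval of -1.07 to 0.06 and an adjusted p of 0.147. Here 3 of 4 members were lower, where 19.9% of genes tested were lower, 15.9% higher and 35.8% in all changed. These calls held without each of the 7 HDM libraries in turn. In number range 2, with 7 against 2 libraries, the directions were the same but no member passed, at -1.47 for Ccl11, -2.43 for Ccl24 and -1.01 for Ccr3, where 4 genes in all passed. Ccl8 passed at -0.84 (adjusted p = 0.0343) in range 1, with 8 against 5 libraries, and lay at -0.07 in range 2, and with only these 2 groups in the fit it passed at -0.59 (adjusted p = 0.0381). This comparison shares the anti-IL-33 libraries with the one against the isotype.

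Against saline, Ccl11 and Ccl8 stayed higher under anti-IL-33, by 1.96 ± 0.39 (adjusted p = 9.01e-05) and 4.21 ± 0.39 (adjusted p = 1.9e-10) on the log2 scale. Ccl24 lay at -0.39 ± 0.67, with an interval of -1.75 to 0.97, and Ccr3 at -0.14 ± 0.38, with an interval of -0.91 to 0.62. These are 2 of 4 members higher, where 20% of genes tested were higher, 18.5% lower and 38.6% in all changed. In number range 1, with 8 against 2 libraries, the log2 fold changes were 1.91 for Ccl11 (adjusted p = 0.126) and 4.38 for Ccl8, and in range 2, with 7 against 5, 2.18 and 4.35. The mean level under anti-IL-33 was 22.5% of the isotype mean for Ccl11, 13.9% for Ccl24, 39.1% for Ccr3 and 68.0% for Ccl8.

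Between the isotype group and 15-week HDM without antibody no member passed, nor did any of the genes tested, with 0% called by edgeR. Of all genes 932 had an unadjusted p under 0.05, DESeq2 called 8 and limma-voom 0. The log2 differences were 0.23 ± 0.42 for Ccl11, -0.46 ± 0.62 for Ccl24, 0.02 ± 0.38 for Ccl8 and -0.24 ± 0.46 for Ccr3. Their intervals ran from -0.62 to 1.07, -1.70 to 0.79, -0.74 to 0.79 and -1.17 to 0.70.

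**Figure D3:**
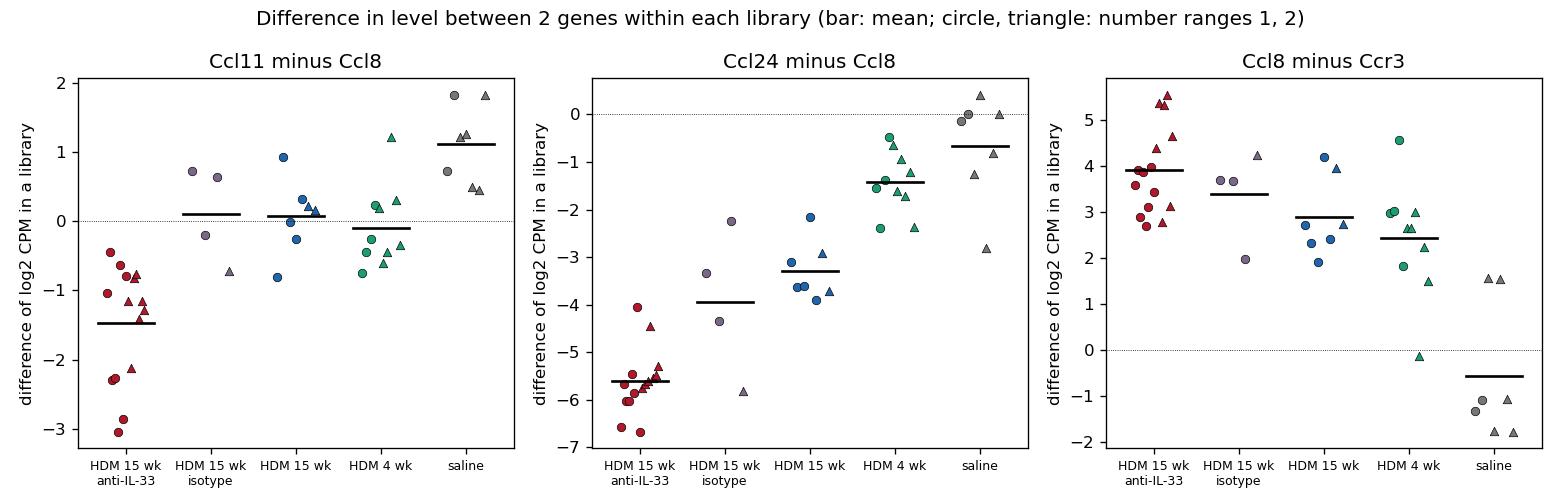
Difference of log2 CPM between 2 genes within each library, by group, for Ccl11 minus Ccl8, Ccl24 minus Ccl8 and Ccl8 minus Ccr3. Points are libraries, circles and triangles are number ranges 1 and 2, and bars are means; the anti-IL-33 group averaged -1.47 for Ccl11 minus Ccl8, against 0.11 in the isotype group.

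Whether 2 members changed by unequal amounts was tested within libraries, on the difference of their log2 CPM, with a two-sided exact permutation test of the group labels. Of 42 tests, 6 pairs in 7 comparisons, 21 passed after BH adjustment. With labels permuted within number range 21 passed as well, and 2 calls differed. Ccl11 fell more than Ccl8 under anti-IL-33. Ccl11 minus Ccl8 averaged -1.47 ± 0.83 (SD, n = 15) in the anti-IL-33 group, against 0.11 ± 0.69 (n = 4) in the isotype group (exact permutation, adjusted p = 0.00542) and 0.08 ± 0.53 (n = 7) in 15-week HDM without antibody (exact permutation, adjusted p = 0.000493). Ccl24 also fell more than Ccl8. Ccl24 minus Ccl8 averaged -5.61 ± 0.68 in the anti-IL-33 group, against -3.93 ± 1.52 in the isotype group (exact permutation, adjusted p = 0.0347) and -3.29 ± 0.61 without antibody (exact permutation, adjusted p = 0.000123).

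For Ccl11 against Ccl24, a difference in the fall was not shown. Their difference averaged 4.14 ± 1.21 in the anti-IL-33 group, against 4.04 ± 0.91 with the isotype (exact permutation, n = 15 against 4, difference 0.10, adjusted p = 0.879). Ccl8 minus Ccr3 averaged 3.91 ± 0.96 under anti-IL-33, against 2.89 ± 0.85 in 15-week HDM (exact permutation, n = 15 against 7, adjusted p = 0.0463), and it had an adjusted p of 0.0634 with labels permuted within number range. Ccl24 minus Ccr3 in the same comparison had an adjusted p of 0.108, and 0.0319 within number range.

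Between 4 and 15 weeks, Ccl24 fell more than the other ligands. Ccl24 minus Ccl8 averaged -3.29 ± 0.61 at 15 weeks, against -1.43 ± 0.64 at 4 weeks (exact permutation, n = 7 against 10, adjusted p = 0.00216). Ccl11 minus Ccl24 averaged 3.37 ± 0.98 at 15 weeks, against 1.34 ± 0.77 at 4 weeks (exact permutation, adjusted p = 0.00384). Ccl11 minus Ccl8 averaged 0.08 ± 0.53 at 15 weeks, against -0.09 ± 0.59 at 4 weeks, and that difference did not pass (exact permutation, adjusted p = 0.585). Over saline at 4 weeks, Ccr3 rose less than each ligand, with adjusted p of 0.0175 for Ccl11, 0.00771 for Ccl24 and 0.0051 for Ccl8 by exact permutation.

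**Figure D4:**
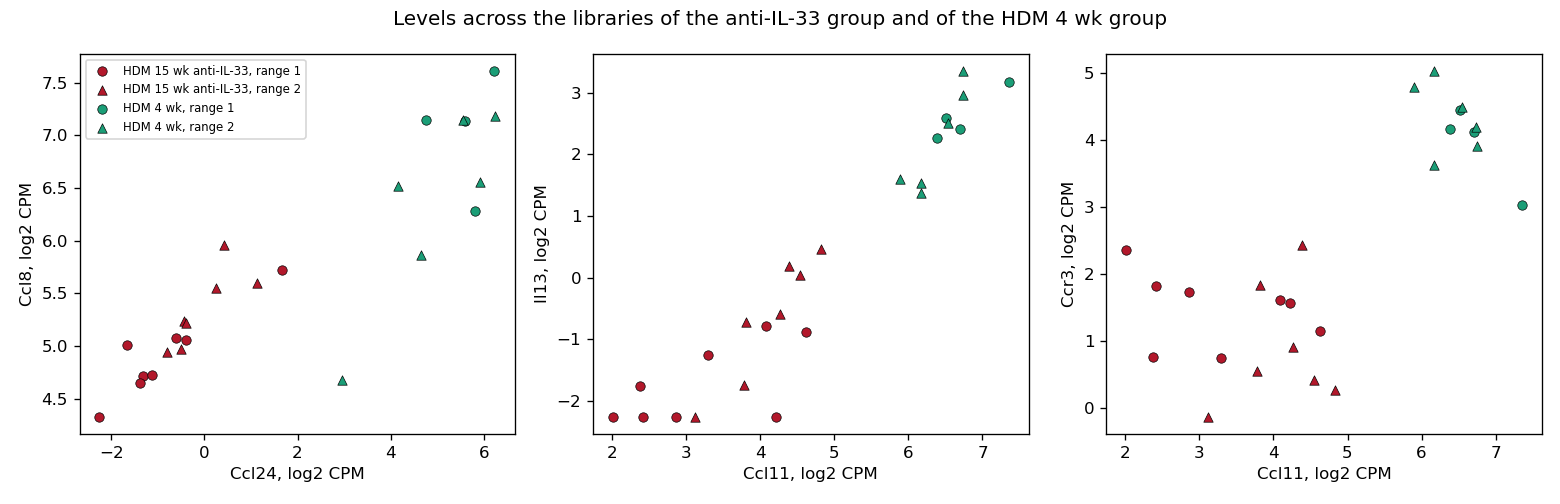
Levels of Ccl24 and Ccl8, of Ccl11 and Il13, and of Ccl11 and Ccr3 across the libraries of the anti-IL-33 group and the 4-week HDM group, as log2 CPM. Each point is a library, circles and triangles are number ranges 1 and 2; Ccl24 and Ccl8 had r of 0.893 in the anti-IL-33 group.

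Within groups, some ligand genes varied together across libraries, and no relation of the receptor passed. In all, 30 relations were computed, 10 in each of 3 groups, with BH adjustment over them. In the anti-IL-33 group Ccl24 and Ccl8 had a Pearson r of 0.893 and a Spearman rho of 0.907 over 15 libraries, each with a permutation p of 2e-05, the smallest that these permutations can give, and adjusted p of 0.0006. The r was 0.853 without the 2 libraries farthest from the Ccl24 median, 0.925 within number range 1 and 0.806 within range 2. Ccl24 counts in these libraries were 0 to 22, so its values carry large counting error. In 15-week HDM without antibody the same pair had r of 0.956 (exact permutation, n = 7, adjusted p = 0.0357) and rho of 0.857 (exact permutation, adjusted p = 0.102), and r of 0.771 without the 2 farthest libraries.

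After 4 weeks of HDM, Ccl11 went with Ccl24, with r of 0.800 and rho of 0.842 over 10 libraries (permutation p = 0.00162 and 0.0035, adjusted 0.0082 and 0.021). It went with Ccl8 as well, with r of 0.797 and rho of 0.818 (permutation p = 0.00164 and 0.00582, adjusted 0.0082 and 0.0291). Without the 2 farthest libraries these r were 0.700 and 0.574, so the second relation rests in part on those libraries. Within number range 2, with 6 libraries, they were 0.974 and 0.841, and range 1 has 4 libraries, too few for a value.

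Il13, the gene of the type 2 cytokine IL-13, which induces eotaxins, followed Ccl11 across libraries in 2 of 3 groups. Ccl11 and Il13 had r of 0.853 and rho of 0.867 over the 10 libraries at 4 weeks (permutation p = 0.00088 and 0.00166, adjusted 0.0066 and 0.0124), and 0.922 without the 2 farthest. In the anti-IL-33 group they had r of 0.771 and rho of 0.786 over 15 libraries (permutation p = 0.00074 and 0.0009, adjusted 0.0066 and 0.009), with r of 0.629 in number range 1, which did not pass on its own (exact permutation, n = 8, p = 0.1), and 0.945 in range 2. Ccl24 and Il13 had r of 0.859 and rho of 0.927 at 4 weeks (permutation p = 0.0008 and 0.00024, adjusted 0.0066 and 0.0036), 0.876 without the 2 farthest. In 15-week HDM without antibody neither relation passed, with r of 0.512 for Ccl11 (exact permutation, n = 7, adjusted p = 0.35) and 0.718 for Ccl24 (exact permutation, n = 7, adjusted p = 0.146, and r of 0.155 without the 2 farthest). In the anti-IL-33 group Ccl24 and Il13 had r of 0.323 (permutation, adjusted p = 0.35). Their r was 0.716 without the 2 farthest libraries, -0.295 in number range 1 and 0.694 in range 2. Ccl8 and Il13 passed in none of the 3 groups. Their r was 0.655 at 4 weeks, 0.808 at 15 weeks without antibody and 0.371 under anti-IL-33 (permutation, adjusted p = 0.108, 0.058 and 0.29). Il13 averaged 0.324 ± 0.378 CPM (SD, n = 15) in the anti-IL-33 group, so these values are a few counts a library.

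None of the 9 relations of Ccr3 with a ligand passed, nor did any of the 3 with Prg2, the gene of eosinophil major basic protein. At 4 weeks, Ccl11 and Ccr3 had r of -0.717 (permutation p = 0.026, adjusted 0.0781) and rho of -0.527 (permutation p = 0.126, adjusted 0.269), and r of -0.211 without the 2 farthest libraries. The library highest in Ccl11 and lowest in Ccr3 there was replicate 3, which stood apart from its group.

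**Figure D5:**
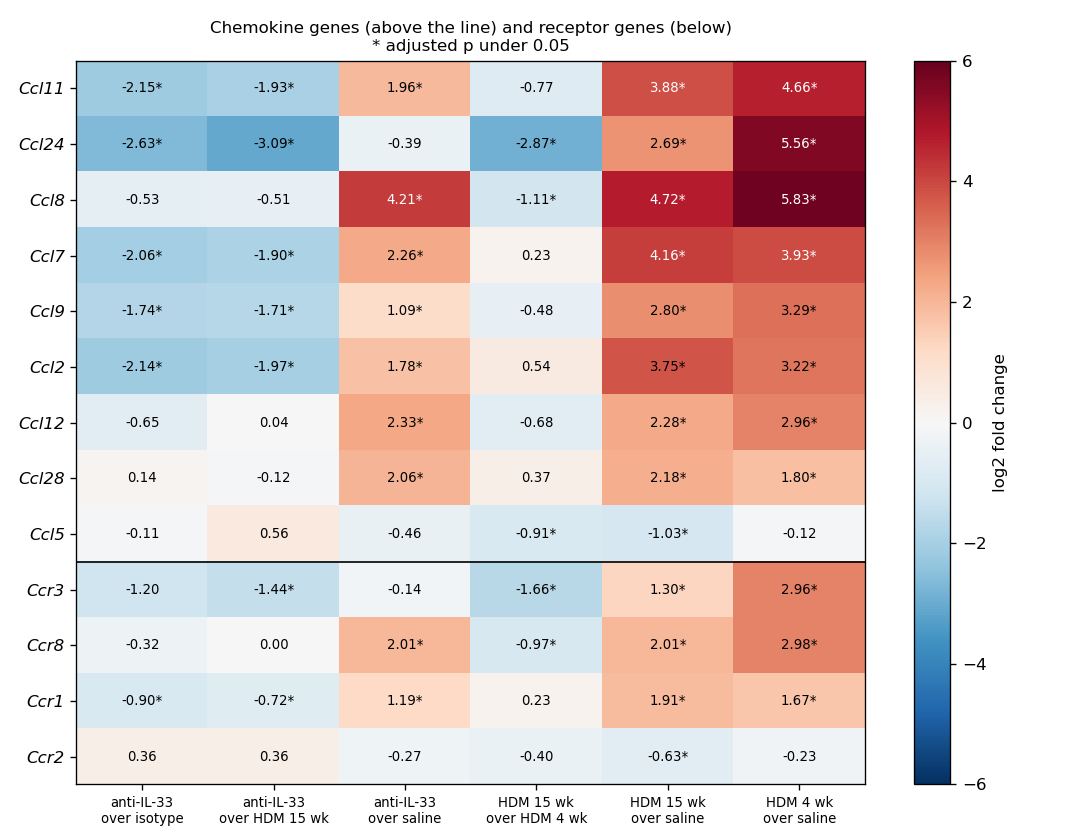
Log2 fold changes of chemokine genes and chemokine receptor genes in 6 comparisons, with an asterisk where the adjusted p was under 0.05. Rows are genes, ligands above the line and receptors below; under anti-IL-33 over isotype Ccl11, Ccl24, Ccl7, Ccl9 and Ccl2 fell, and Ccl8, Ccl12, Ccl28 and Ccl5 did not pass.

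The list of other ligands of CCR3 held Ccl5, Ccl7, Ccl9, Ccl26 and Ccl28. Ccl26 had no count in any of 43 libraries, which together allow up to 0.00732 CPM, and the other 4 were tested. Against the isotype, 2 of 4 fell under anti-IL-33, Ccl7, a monocyte chemoattractant that also binds CCR3, by 2.06 ± 0.38 (adjusted p = 0.00164) and Ccl9, whose best known receptor is CCR1, by 1.74 ± 0.28 (adjusted p = 0.000398). The median of the 4 was -0.92, beside 0.01 over all genes tested, of which 3.14% fell. Ccl28, a mucosal epithelial chemokine, lay at 0.14 ± 0.49 and Ccl5, a T cell chemokine, at -0.11 ± 0.34. At 4 weeks over saline 3 of 4 rose, Ccl7, Ccl9 and Ccl28, and the median was 2.55, beside 0.01 over all genes, of which 29.3% rose. At 15 weeks over saline the same 3 rose and Ccl5 fell by 1.03 ± 0.35 (adjusted p = 0.0107). Of all genes tested there 31.2% rose and 28.1% fell.

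Among the genes beside Ccl11 and Ccl8 on chromosome 11, Ccl2, the main monocyte chemoattractant, fell by 2.14 ± 0.33 (adjusted p = 0.000256) under anti-IL-33 against the isotype, averaging 3.17 ± 1.57 CPM (SD, n = 15) against 13.02 ± 4.195 CPM (n = 4). Ccl12, the neighbour nearest to Ccl8, averaged 3.34 ± 0.80 CPM against 5.43 ± 1.32 CPM, at -0.65 ± 0.31 (adjusted p = 0.162). So 2 of the 3 neighbours tested fell, where 3.14% of all genes tested fell, and Ccl1 had too few counts to be tested. Against 15-week HDM without antibody Ccl12 lay at 0.04 ± 0.27 and Ccl2 fell by 1.97 ± 0.28 (adjusted p = 1.16e-05).

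Ccr8, the gene of the receptor for mouse CCL8, averaged 1.42 ± 0.42 CPM (SD, n = 15) under anti-IL-33, 1.76 ± 0.56 CPM (n = 4) with the isotype, 1.42 ± 0.60 CPM (n = 7) at 15 weeks without antibody, 2.75 ± 1.03 CPM (n = 10) at 4 weeks and 0.329 ± 0.208 CPM (n = 7) with saline. It rose over saline by 2.01 ± 0.31 under anti-IL-33 (adjusted p = 2.29e-06), and lay at -0.32 ± 0.30 against the isotype (adjusted p = 0.481). Between 4 and 15 weeks it fell by 0.97 ± 0.27 (adjusted p = 0.00911).

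The list of receptor genes near Ccr3 held 5 genes, 4 of them tested, of which Ccrl2 lies 12960 kb from Ccr3 and is no close neighbour. Against the isotype 1 of the 4 fell, where 3.14% of all genes tested fell. It was Ccr1, a receptor of monocytes and neutrophils, by 0.90 ± 0.23 (adjusted p = 0.0206). Ccr2, the receptor of CCL2 on monocytes, lay at 0.36 ± 0.22. At 4 weeks over saline Ccr1 rose, by 1.67 ± 0.23, and Ccrl2 fell by 0.84 ± 0.13. In that comparison 29.3% of all genes tested rose and 27.5% fell, so 1 of 4 each way is near the share over all genes.

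Genes of type 2 cytokines and their signalling were measured beside the 4 genes. Induction of the eotaxins by these cytokines was not tested. Of the 7 genes for type 2 cytokines and their signalling, 4 rose and 1 fell at 4 weeks over saline, with Il13 up by 5.47 ± 0.63 (adjusted p = 4.6e-09), Il5, the eosinophil growth cytokine, by 3.52 ± 0.52 and Il4 by 2.87 ± 0.42. In that comparison 29.3% of all genes tested rose and 27.5% fell. Between 4 and 15 weeks Il13 fell by 1.57 ± 0.45 (adjusted p = 0.0109), Il5 by 1.54 ± 0.44 and Il4 by 1.26 ± 0.38, and Il4ra, the shared receptor chain of IL-4 and IL-13, rose by 0.56 ± 0.14. Against the isotype 3 of 7 fell under anti-IL-33, Il13 by 2.56 ± 0.55 (adjusted p = 0.00701), Il5 by 2.68 ± 0.57 (adjusted p = 0.00586) and Socs1, a feedback inhibitor of cytokine signalling, by 0.74 ± 0.24 (adjusted p = 0.0497). Il4 lay at -0.86 ± 0.50 against the isotype, where 3.14% of all genes tested fell.

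Markers of the cells that carry or make these proteins were measured beside them. Among 9 eosinophil markers Epx, the gene of eosinophil peroxidase, was near 0 everywhere, at most 0.774 CPM, and had no count in the 7 saline libraries, which together allow up to 0.0412 CPM. Epx and Prg3 had too few counts to be tested. Of the 7 tested, 6 rose at 4 weeks over saline, 5 at 15 weeks and 5 under anti-IL-33, where 29.3%, 31.2% and 20% of all genes tested rose. None of the 7 changed under anti-IL-33 against the isotype, with a median of -0.51, where 6.71% of genes tested changed. Against 15-week HDM without antibody 3 of 7 fell under anti-IL-33, where 19.9% of genes tested fell, Prg2 by 0.69 ± 0.23 (adjusted p = 0.0186), Csf2rb by 0.75 ± 0.23 and Alox15 by 1.11 ± 0.42. Prg2 averaged 6.93 ± 1.81 CPM (SD, n = 15) under anti-IL-33, 8.89 ± 4.19 CPM (n = 4) with the isotype, 11.02 ± 4.72 CPM (n = 7) at 15 weeks, 12.8 ± 5.18 CPM (n = 10) at 4 weeks and 0.461 ± 0.120 CPM (n = 7) with saline. It rose over saline by 3.89 ± 0.34 under anti-IL-33 (adjusted p = 2.86e-11), where Ccr3 lay at -0.14 ± 0.38. The markers Il5ra and Siglecf did not pass in that comparison, at 0.19 ± 0.24 and 0.17 ± 0.24. The summed level of the 9 markers was 161 to 583 CPM under anti-IL-33, 391 to 508.5 CPM with the isotype, 408 to 634 CPM at 15 weeks, 239.7 to 472 CPM at 4 weeks and 61.8 to 147 CPM with saline. In the 3 groups of 15 weeks most of the sum was Csf2rb, a cytokine receptor gene of many myeloid cells, which averaged 217.5 ± 118 CPM under anti-IL-33 and 52.01 ± 12.9 CPM with saline. Adgre1 and Siglecf of that list are also macrophage genes, and Ear6 belongs to a family of near-identical genes whose counts may be shared.

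Among 8 basophil and mast cell markers, other cells that can carry CCR3, 2 rose and 1 fell at 4 weeks, where 56.8% of genes tested changed. None of the 8 changed against the isotype, where 6.71% of genes tested changed. The sum of the 8 markers was 81.2 to 171 CPM under anti-IL-33, 108 to 138 CPM with the isotype, 83.1 to 167.5 CPM at 15 weeks, 94.3 to 230 CPM at 4 weeks and 172 to 241 CPM with saline, and Mcpt8, the basophil protease, was at most 2.92 CPM. Nearly all of that sum is Kit, with 122.5 ± 28.03 CPM under anti-IL-33, 159 ± 38.6 CPM at 4 weeks and 206 ± 25.6 CPM with saline. The mast cell protease genes Tpsb2 and Cpa3 rose at 4 weeks over saline, to 4.88 ± 3.09 and 3.20 ± 1.01 CPM, against 0.655 ± 0.772 and 1.01 ± 0.525 CPM with saline, and Kit fell.

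Of 10 markers of interstitial and monocyte-derived macrophages, a source of CCL8 and CCL24, 8 rose and 1, Lyve1, fell at 4 weeks over saline. Among all genes tested 29.3% rose and 27.5% fell at 4 weeks over saline, and against the isotype 3.14% fell and 6.71% changed. Under anti-IL-33 against the isotype 2 of 10 fell, Arg1, the arginase of macrophages exposed to IL-4 or IL-13, by 2.93 on the log2 scale (adjusted p = 0.00353) and Mmp12, macrophage elastase, by 2.51 (adjusted p = 0.012). C1qb, a complement gene of tissue macrophages, averaged 92.3 ± 20.4 CPM under anti-IL-33, 112 ± 12.1 CPM with the isotype and 21.7 ± 4.22 CPM with saline, and lay at -0.27 against the isotype (adjusted p = 0.284). The summed level of the 10 markers was 665 to 1255 CPM under anti-IL-33, 1092 to 2493 CPM with the isotype, 1172 to 2711 CPM at 15 weeks, 1505 to 3498 CPM at 4 weeks and 333 to 558 CPM with saline. Of 6 fibroblast markers, cells that make CCL11, none changed against the isotype. At 4 weeks over saline 2 of the 6 rose and 1 fell, where 56.8% of genes tested changed. Against 15-week HDM without antibody all 6 changed, with Col1a1, a collagen gene, falling by 1.44 ± 0.24 (adjusted p = 6.12e-05), and Col1a2 and Pdgfrb falling too, while Pdgfra, Dcn and Lum rose, where 35.8% of genes tested changed. Of 4 smooth muscle markers all rose at 4 weeks over saline, by 0.47 to 1.06, and 3 fell between 4 and 15 weeks, Tagln by 1.07 ± 0.18 (adjusted p = 8.77e-05), Myh11 and Acta2. The share of all genes tested that fell between 4 and 15 weeks was 9.08%. Against the isotype 2 of 4 neutrophil markers fell, Csf3r by 0.82 and S100a8 by 0.92 on the log2 scale (adjusted p = 0.0255 and 0.048), and none of 5 alveolar macrophage, 4 smooth muscle, 5 lung identity and 5 tested other-tissue markers changed. Of 4 epithelial markers Epcam, an adhesion gene, fell by 0.41 (adjusted p = 0.0162). The part that numbers of these cells have in the levels of the 4 genes was not tested.

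The genes most like each member were ranked by the Pearson correlation of log2 CPM over 43 libraries after group and number range were fitted, among 14072 genes, as a description with no test. For Ccl11 they were Retnla, a resistin-like gene of type 2 lung inflammation, at 0.878, Rnase2a, an eosinophil-associated ribonuclease gene, at 0.814 and Chil4, a chitinase-like gene, at 0.786. For Ccl8 they were Rnase2a at 0.788, Cdca3, a cell division gene, at 0.721 and Serpina3g, a serine protease inhibitor gene, at 0.715. For Ccl24 they were Cdc20, a mitosis gene, at 0.717, Psat1, an enzyme of serine synthesis, at 0.692 and Fetub at 0.679. For Ccr3 they were Gapt at 0.685, Retnlg at 0.614 and Rnd3 at 0.587. Ccl8 ranked 7 for Ccl24 at 0.647 and 70 for Ccl11 at 0.599, while Ccr3 had -0.04 with Ccl11, 0.10 with Ccl24 and -0.04 with Ccl8. Retnla, Retnlg, Chil4 and Rnase2a belong to families of like genes, whose counts may be shared.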

How the data were processed

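Strand-specific mRNA libraries of mouse lung were prepared from total RNA, per the labels' protocols. The deposited values are the authors' raw counts, whole numbers for each Entrez ID, not normalized. The genome build was GRCm38, per the submitters' processing notes, and no source used here names the aligner, counting tool, annotation or strand setting. Of 24475 IDs 24375 were matched to a symbol. The 100 others, with 2.62% of counts, stayed in the library totals. No 2 libraries held identical counts.

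Libraries were scaled by TMM and filtered with filterByExpr, and all 43 entered 1 quasi-likelihood fit in edgeR 4.0.16 (R 4.3.3) with terms for group and number range, with BH adjustment over 15598 genes in each of 7 comparisons. Changes between members and relations within groups used log2 CPM with a prior count of 2 and permutation tests (Python 3.11.15, SciPy 1.17.1, NumPy 2.4.6). Figures used matplotlib 3.10.9. The members, the 15 other gene lists, the tests and the rule for named genes (all members, up to 4 of a list with the smallest p, and the 3 genes most like each member among those with a mean of at least 1 CPM) were chosen with earlier results of these data known. One gene was left out of these lists and is not reported here. Some list members were named beyond that rule, after their values were seen. Alternatives were DESeq2 1.42.0 with its size factors, limma 3.58.1 (voom), RLE scaling, no filter, no term for number range, each range alone, only the 2 groups compared, leaving out libraries, and a prior count of 0.5. The edgeR fit was also tested on simulated counts.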

Additional observations from a re-analysis of the deposited data

Results flagged for a closer look

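Of 16 sets of libraries, each 1 gene in 1 group of 4 to 10, 6 had a library far from the others by Dixon's test, which chance gives in about 1 of 20. In 4-week HDM, replicate 3 had 163.6 CPM of Ccl11, and the next highest library 107.0 CPM. In 15-week HDM, replicate 4 had 22.3 CPM of Ccl24, the next 6.74 CPM, and the same library had 100.1 CPM of Ccl8, the next 57.98 CPM. Replicate 3 of 15-week HDM had 15.2 CPM of Ccr3, the next 7.86 CPM. Replicate 4 of the isotype group had 39.2 CPM of Ccl8, below the next lowest at 56.8 CPM. Replicate 1 of saline had 6.93 CPM of Ccr3, the next 2.78 CPM.

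The rise over saline differed between 15 and 4 weeks of HDM for 3 genes, by a test of the difference itself in edgeR. The difference, 15 weeks minus 4 weeks, was -2.87 on the log2 scale for Ccl24, -1.11 for Ccl8 and -1.66 for Ccr3.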

How the results depend on the processing

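No paired analysis was possible because the labels give no shared replicate number, animal, litter or day that joins libraries of different groups. Of member fold changes under the alternatives, 354 of 395 kept their direction and side of the threshold, as did 82 of 84 differences between members and 20 of 30 relations, and 74 of 99 counts of genes stayed within 1.5 times. The cause was not tested where a value moved. Leaving out 15-week HDM libraries, and the tests of the added pairs, were chosen after seeing the data. Depth limits Ccl24 and Ccr3 most, with 0 to 22 and 7 to 56 counts under anti-IL-33.

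For anti-IL-33 against isotype 1046 genes were called. The count was 687 with no filter on low counts, 297 in number range 1, 1 in range 2, 4153 with only the 2 groups, 1704 with DESeq2, 4639 without the 2 libraries that stood apart and 58 to 935 without each isotype library. Without them Ccl24 ranged over -3.09 to -1.84 and Ccr3 over -1.51 to -0.45. Ccr3 passed with no term for number range, at -1.36, and without the 2 libraries that stood apart, at -1.17. Ccl24 did not pass with limma-voom, at -2.38, and Ccl8 passed with only the 2 groups, at -0.66. In range 2, where isotype has 1 library, Ccl11 lay at -0.40, Ccl24 at 0.79, Ccl8 at 0.079 and Ccr3 at 0.11.

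For anti-IL-33 against 15-week HDM, 5588 genes were called, 3561 in range 1, 4 in range 2 and 3459 to 6251 without each HDM library, lowest without replicate 1. Ccl8 passed in range 1 at -0.84 and with only the 2 groups at -0.59. In range 2 Ccl11 at -1.47, Ccl24 at -2.43 and Ccr3 at -1.01 did not pass. Within number range Ccl24 minus Ccr3 differed by -1.52, which passed, and Ccl8 minus Ccr3 by 0.851, which did not.

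For isotype against 15-week HDM, 0 genes were called with edgeR, 7 with no filter, 4 with no term for number range, 8 with DESeq2, 0 to 11 without each isotype library and 0 to 4 without each HDM library. In range 2 Ccl11 lay at -1.07 and Ccl8 at -0.15, and Ccl8 at -0.013 without the 2 libraries that stood apart. Without each isotype library Ccl11 ranged over -0.017 to 0.54, Ccl24 over -1.26 to -0.050, Ccl8 over -0.026 to 0.14 and Ccr3 over -1.01 to 0.046. Without each HDM library Ccl24 ranged over -0.62 to 0.25, Ccl8 over -0.049 to 0.27 and Ccr3 over -0.34 to 0.063.

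In range 1 genes called over saline numbered 2309 of 8866 at 4 weeks, 4194 of 9235 at 15 weeks and 578 of 6015 under anti-IL-33. There Ccl24 at 2.47 and Ccr3 at 1.10 at 15 weeks, and Ccl11 at 1.91 under anti-IL-33, did not pass. In range 2 Ccr3 at 15 weeks, at 1.03, did not pass, and under anti-IL-33 Ccl24 lay at 0.24 and Ccr3 at 0.024. Between 15 and 4 weeks 3334 genes were called, 1409 in range 1, 149 in range 2 and 1206 with only the 2 groups, where Ccl11 passed at -0.88. Ccr3 did not pass in range 1, at -0.97, nor in range 2, at -2.38, where Ccl24 at -3.05 and Ccl8 at -1.09 did not pass either.

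Of relations, in range 2 Ccl24 with Ccl8 at 4 weeks had r of 0.875 (exact permutation, unadjusted p = 0.0472), and p-values within a range are not adjusted. In the anti-IL-33 group Ccl11 with Ccl24 had r of -0.177 in range 1 and 0.757 in range 2, and Ccl11 with Ccr3 0.196 in range 2. In range 1 of that group r was 0.459 for Ccl24 with Ccr3, 0.509 for Ccl8 with Ccr3, 0.408 for Ccr3 with Prg2, 0.629 for Ccl11 with Il13, -0.295 for Ccl24 with Il13 and -0.402 for Ccl8 with Il13.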

Other observations

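Ccr3 and Prg2 are both eosinophil genes, and their levels parted over saline. Not all eosinophil markers went with Prg2. Under anti-IL-33 over saline 5 of the 7 tested rose, where 20% of all genes tested rose. The 2 not called were Il5ra at 0.19 ± 0.24 (edgeR, adjusted p = 0.557) and Siglecf at 0.17 ± 0.24 (edgeR, adjusted p = 0.593). The pairs Ccr3 with Prg2 and Ccl8 with Ccr8 were chosen after their values were seen, so their p-values describe these libraries alone. On log2 CPM differences within libraries 14 tests were made, 2 pairs in 7 comparisons. Ccr3 minus Prg2 averaged -1.59 ± 0.88 (SD, n = 15) under anti-IL-33, against 1.76 ± 0.79 (n = 7) with saline, and all 15 libraries lay below all 7 (exact permutation, p = 1.17e-05, the smallest it can give, adjusted 8.21e-05). It averaged -0.64 ± 0.65 (n = 7) at 15 weeks, against 0.58 ± 0.58 (n = 10) at 4 weeks (exact permutation, p = 0.000309, adjusted 0.00108). Against the isotype group, at -0.74 ± 0.81 (n = 4), the difference of the anti-IL-33 group did not pass (exact permutation, p = 0.0929, adjusted 0.13). Against 15-week HDM without antibody it was lower under anti-IL-33, by -0.95 log2 units (exact permutation, n = 15 against 7, p = 0.0152, adjusted 0.0236).

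Ccl8 minus Ccr8, the ligand and its receptor, averaged 4.99 ± 0.42 (SD, n = 7) at 15 weeks, against 5.12 ± 0.73 (n = 10) at 4 weeks (exact permutation, p = 0.684, adjusted 0.736), with a difference of -0.13 log2 units. Under anti-IL-33 it averaged 4.46 ± 0.41 (n = 15), against 4.99 ± 0.42 at 15 weeks without antibody (exact permutation, p = 0.0111, adjusted 0.0194) and 4.79 ± 0.66 (n = 4) with the isotype (exact permutation, p = 0.225, adjusted 0.287).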
